A study of Mus musculus with 12 samples.

Results

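Gpnmb, Spp1, Trem2, Apoe, Lgals3, Cd9, Fabp5 and Ctsd are genes that mark lipid-associated macrophages, and their RNA was followed here in libraries labelled as bone endothelial cells (BECs) of female and male mice at 2 ages. Endothelial markers were well detected at 2 weeks and far lower at 65 weeks, and markers of other marrow cells were abundant at both ages. They were 8 of the 37620 genes in the count table, and were found by matching their symbols to Ensembl gene IDs. The set was put together because Gpnmb, Spp1 and Trem2 tended to be higher in male than in female libraries at 65 weeks. Male against female at 65 weeks is therefore given as values with no test for these 8 genes, and tests are given only for age averaged over both sexes and for sex at 2 weeks.

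The study sorted cells for endomucin, an endothelial surface glycoprotein, from the tibia by the labels and from tibiae and femurs by its methods. It compared the sexes by RNA-seq at 3 ages, of which the youngest and the oldest are used here. There were 4 groups of 3 libraries: 2-week-old females, 2-week-old males, 65-week-old females and 65-week-old males, all of the strain labelled c57/Bl6, with no treatment and no altered allele named for any group. The labels do not say whether the 3 libraries of a group came from separate or pooled animals, so p-values measure only the spread between these libraries. The study kept the samples with the best RNA quality in each set.

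Each library held between 26044743 and 44569600 counts, and the 8 genes had between 93 and 120746 counts in a library, so each was well above 3 counts, the level taken as the floor of detection (0.0673 to 0.115 CPM, the counts scaled to a common library total). In each group the spread between replicates exceeded sampling noise (chi-square per degree of freedom of 26.6 to 102.5 between pairs). A pair of libraries matched their sex label but also held a few counts of the other sex. Male replicate 3 at 65 weeks held 117 counts of Xist, the RNA of the inactive X chromosome, against 3 and 0 counts in the other males of that age, and female replicate 3 at 2 weeks held 25 counts of Y-linked genes against 0 or 1 in the other females. That male library also held 3496 counts of Y-linked genes, against 3529 and 3664 in the other males of that age. The female library held 7069 counts of Xist, against 3552 and 3328 in the other 2-week females. The values of the 8 genes that rest on these libraries are given with and without them. The tissue label was also checked. At 2 weeks Emcn, which encodes endomucin, had 147 ± 32.8 CPM (SD, n = 3) among females and 197 ± 37.97 CPM among males, but at 65 weeks 5.004 ± 2.101 CPM among females and 5.64 ± 0.971 CPM among males. The 15 macrophage markers checked were all above 3 counts in all 12 libraries, as were 16 of the 17 endothelial markers. At 65 weeks the 17 endothelial markers summed to 314 to 442 CPM, where 11 neutrophil markers summed to 12262 to 26714 CPM and 8 erythroid markers to 30836 to 47568 CPM. At 2 weeks the endothelial markers summed to 3784 to 6833 CPM, the neutrophil markers to 4127 to 6505 CPM and the erythroid markers to 30442 to 57203 CPM. The 12 osteoblast and osteocyte markers summed to 5663 to 8476 CPM at that age. All libraries are therefore named below by age and sex and not as BECs. In bulk libraries such as these, fewer cells of a type and less RNA per cell cannot be told apart.

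Lipid-associated macrophages are macrophages that take up and break down lipid and cell debris in fat, atherosclerotic plaque, liver and ageing brain. TREM2 is a surface receptor that binds lipids and lipoproteins, and its signal passes through the adaptor TYROBP. APOE carries cholesterol and is a ligand of TREM2, FABP5 binds fatty acids inside the cell, and cathepsin D (Ctsd) degrades protein in the lysosome. GPNMB is a membrane glycoprotein of lysosome-rich cells, galectin-3 (Lgals3) binds sugars on damaged membranes, and CD9 is a tetraspanin of the cell surface and of exosomes. Osteopontin (Spp1) is a secreted ligand of integrins and CD44. None of these genes is restricted to macrophages. In bone, osteopontin is a major product of osteoblasts and osteocytes, and both GPNMB and osteopontin are made by osteoclasts.

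Lysosomal genes are known targets of the MiT/TFE transcription factors, and macrophage genes of PU.1. The bases upstream of the start were therefore searched, in the RefSeq windows of 7 of the 8 genes, for the E-box of the CLEAR type (CACGTG), the M-box (TCATGTG), the AP-1 site (TGACTCA or TGAGTCA) and the PU.1 core (GAGGAAGT), on both strands. Fabp5 had no window in the table. The 250 bases before the start are shown for Gpnmb, Spp1 and Trem2, which led to the choice of the set, and for Ctsd, the lysosomal enzyme, in the direction of transcription on GRCm38.p6. They lie at chr6:49036268-49036517 (plus strand), chr5:104434861-104435110 (plus strand), chr17:48346151-48346400 (plus strand) and chr7:142387828-142388077 (minus strand). Capitals mark a match.
Gpnmb: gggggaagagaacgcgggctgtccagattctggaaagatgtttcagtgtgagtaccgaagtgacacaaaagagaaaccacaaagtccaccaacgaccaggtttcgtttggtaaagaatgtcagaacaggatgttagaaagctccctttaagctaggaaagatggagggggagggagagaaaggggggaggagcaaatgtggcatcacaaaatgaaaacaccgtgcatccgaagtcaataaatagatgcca
Spp1: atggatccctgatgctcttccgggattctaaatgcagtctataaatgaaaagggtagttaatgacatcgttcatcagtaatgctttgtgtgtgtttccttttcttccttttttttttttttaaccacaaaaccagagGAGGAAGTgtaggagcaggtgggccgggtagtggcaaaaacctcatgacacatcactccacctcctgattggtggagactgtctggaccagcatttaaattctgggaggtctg
Trem2: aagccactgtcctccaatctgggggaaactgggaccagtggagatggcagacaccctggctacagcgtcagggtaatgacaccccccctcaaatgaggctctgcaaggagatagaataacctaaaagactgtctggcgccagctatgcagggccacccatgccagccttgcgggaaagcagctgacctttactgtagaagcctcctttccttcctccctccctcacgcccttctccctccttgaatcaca
Ctsd: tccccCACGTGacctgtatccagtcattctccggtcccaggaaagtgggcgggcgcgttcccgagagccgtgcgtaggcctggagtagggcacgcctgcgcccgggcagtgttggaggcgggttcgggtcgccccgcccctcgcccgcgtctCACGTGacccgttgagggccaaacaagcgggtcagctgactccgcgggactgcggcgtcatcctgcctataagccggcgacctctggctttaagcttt
The Ctsd window held 2 CACGTG matches, which start 245 and 98 bases before the transcription start, and the Spp1 window held 1 GAGGAAGT match, 113 bases before it. No searched motif was in the windows shown for Gpnmb and Trem2. Of the 10 windows of these genes, 2 held a match. Of 32851 windows of the same length from all genes, 6.02% held CACGTG, 3.25% TCATGTG, 4.46% either AP-1 site and 2.44% GAGGAAGT. A match is a stretch of letters and not evidence of binding.

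The first comparison asked how the 8 genes differed between the libraries of old and young mice, averaged over sex. All 8 passed the test (the quasi-likelihood test of edgeR, with a threshold of 0.05 on the Benjamini-Hochberg adjusted p over all genes tested). Gpnmb, Trem2, Apoe, Lgals3, Fabp5 and Ctsd rose, and Spp1 and Cd9 fell. The change with age was broad in these libraries, since 69.8% of the 15747 genes tested were called, 34.8% higher and 35.0% lower. In 5 of the 8 genes (62.5%) all 6 libraries of 65 weeks were above all 6 of 2 weeks, which held for 16.5% of the genes tested. In 2 of the 8 (25.0%) they were all below, which held for 30.2%. The median log2 fold change of the 8 genes was 1.16, and that of all genes tested was 0.0003. Without female replicate 3 of 2 weeks, or without male replicate 3 of 65 weeks, all 8 were still called in the same direction. Without that female library the log2 fold changes were 5.74 for Gpnmb, −4.94 for Spp1, 2.53 for Trem2, 1.57 for Apoe, 1.36 for Lgals3, −0.59 for Cd9, 0.91 for Fabp5 and 0.63 for Ctsd. Leaving out the male library gave 6.002 for Gpnmb, −4.82 for Spp1, 2.65 for Trem2, 1.54 for Apoe, 1.42 for Lgals3, −0.53 for Cd9, 0.99 for Fabp5 and 0.715 for Ctsd.

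**Figure D1:**
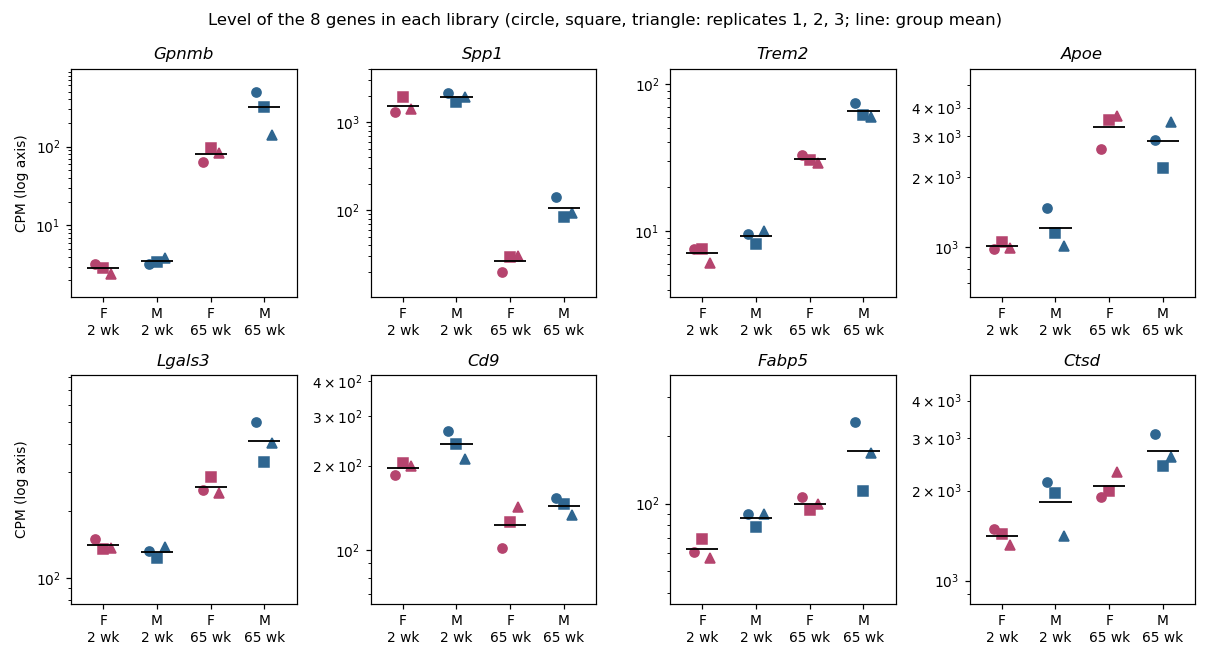
Level of each of the 8 genes in each library, in CPM on a log axis, for females (F) and males (M) at 2 and 65 weeks; circles, squares and triangles are replicates 1, 2 and 3, and the line is the group mean. Gpnmb and Trem2 stood higher in every 65-week library than in any 2-week library, Spp1 stood lower, and the Ctsd libraries of the ages overlapped.

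Trem2 (ENSMUSG00000023992, chr17:48653429-48661175, plus strand, on GRCm39 as for the other genes, all protein-coding) encodes the lipid-sensing receptor of the set. In replicates 1 to 3 of the 2-week females it had 7.54, 7.51 and 6.09 CPM, and in those of the 2-week males 9.49, 8.14 and 10.05 CPM. At 65 weeks the females had 33.05, 30.4 and 28.9 CPM and the males 74.7, 61.1 and 59.5 CPM. Every old library was above every young one, and the males were above the females at both ages. Averaged over sex, Trem2 rose with age by 2.59 on the log2 scale, 6.02-fold (SE 0.101, adjusted p = 7.90e-10). Within the sexes the log2 fold change was 2.26 (SE 0.116) in females and 2.94 (SE 0.154) in males.

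The 5 genes of the TREM2 adaptor and its signalling all rose with age, with a median log2 fold change of 1.09, where 34.8% of all genes tested rose. All 11 neutrophil and all 5 B cell markers rose too, with medians of 1.77 and 1.94, whereas all 11 megakaryocyte markers fell. The part of such cells in the rise of the 5 genes was not tested. Syk, the kinase that binds the phosphorylated adaptor, rose by 1.55 (SE 0.163, adjusted p = 3.34e-06), and Hcst, the alternative adaptor DAP10, by 1.28 (SE 0.111, adjusted p = 5.61e-07). Of the genes of the same receptor family, Trem1, which amplifies inflammatory signals in myeloid cells, rose by 2.19 (SE 0.164, adjusted p = 1.52e-07). Treml4, a family member of macrophages and dendritic cells, rose by 2.11 (SE 0.109, adjusted p = 6.26e-09). Treml1, a receptor of platelets and megakaryocytes, fell, at a log2 fold change of −3.33 (SE 0.335, adjusted p = 2.20e-06).

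Gpnmb (ENSMUSG00000029816, chr6:49013426-49047863, plus strand) encodes the transmembrane glycoprotein GPNMB. In 2-week libraries it was at 3.24, 2.91 and 2.43 CPM in females and 3.21, 3.45 and 3.85 CPM in males. In 65-week libraries it was at 64.5, 96.6 and 83.1 CPM in females and 502, 321 and 139.6 CPM in males. Gpnmb thus had the largest rise of the 8 genes, and its old males were spread more widely, as a ratio of the highest to the lowest library, than any other group of the 8 genes, with replicate 3 the lowest. The rise averaged over sex was 5.80 on the log2 scale, 55.7-fold (SE 0.307, adjusted p = 7.68e-09). It was 4.97 (SE 0.190) in females and 6.66 (SE 0.530) in males. The transcription factors of the MiT/TFE family and of macrophages, some of which are known regulators of this gene, were called higher in 6, lower in 3 and not called in 2 of 11 cases, with a median log2 fold change of 0.34. Cebpb, an inducible factor of myeloid cells, rose by 2.32 (SE 0.155, adjusted p = 5.26e-08), and Spi1, which encodes PU.1, rose by 1.31 (SE 0.0719, adjusted p = 1.03e-08). Pparg, the nuclear receptor of fat cells and of some macrophages, fell, with a log2 fold change of −0.95 (SE 0.117, adjusted p = 1.35e-05).

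Spp1 (ENSMUSG00000029304, chr5:104582165-104589235, plus strand) moved the other way. Its 2-week libraries were at 1310.3, 1921 and 1408 CPM in females and 2150.4, 1707 and 1930.4 CPM in males. At 65 weeks its libraries were at 19.8, 29.9 and 29.99 CPM in females and 143, 84.4 and 94.03 CPM in males. All old libraries were below all young ones, and the old males lay above the old females. Averaged over sex, Spp1 had a log2 fold change with age of −4.90, a 29.9-fold fall (SE 0.188, adjusted p = 7.27e-10). This was −5.72 (SE 0.229) in females and −4.05 (SE 0.249) in males. Dmp1, a matrix phosphoprotein of osteocytes from the same gene family, fell as well, at a log2 fold change of −5.84 (SE 0.344, adjusted p = 1.87e-08).

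Of the 16 receptors and partners of the 8 proteins, 6 rose, 8 fell and 2 were not called, with a median log2 fold change of −0.40. Receptors of osteopontin were found on both sides. Cd44, the hyaluronan receptor, rose by 1.13 (SE 0.0733, adjusted p = 4.15e-08), and Itga4, an integrin subunit of leukocytes, by 1.09 (SE 0.0985, adjusted p = 8.35e-07). Itgb3, the integrin subunit of osteoclasts and platelets, fell, at −2.73 (SE 0.214, adjusted p = 2.33e-07). Ptgfrn, an immunoglobulin-domain partner of CD9, fell too, at −2.68 (SE 0.131, adjusted p = 4.00e-09).

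Apoe (ENSMUSG00000002985, chr7:19430034-19434947, minus strand) encodes the lipoprotein ligand. The young females had 974, 1051 and 989 CPM and the young males 1471, 1144 and 1006 CPM. The old females had 2634, 3542 and 3678 CPM and the old males 2899, 2194 and 3468 CPM. The ages did not overlap, and the sexes overlapped at both ages. Apoe rose by 1.58 on the log2 scale, 3-fold (SE 0.128, adjusted p = 3.07e-07), with 1.84 (SE 0.131) in females and 1.35 (SE 0.204) in males.

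Cholesterol uptake, storage and efflux genes were mixed, with 6 of 13 higher, 5 lower and 2 not called, and a median log2 fold change of 0.12. Pltp, which moves phospholipid between lipoproteins, rose by 1.37 (SE 0.129, adjusted p = 1.23e-06). The high-density lipoprotein receptor Scarb1 fell, at −0.79 (SE 0.0755, adjusted p = 1.44e-06), as did the cholesterol exporter Abca1, at −0.53 (SE 0.174, adjusted p = 0.0162).

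Lgals3 (ENSMUSG00000050335, chr14:47605208-47623624, plus strand) encodes galectin-3. At 2 weeks it was at 150.0, 136 and 137 CPM in females and 133, 124 and 138 CPM in males, and the sexes overlapped. At 65 weeks it was at 248, 283 and 242 CPM in females and 504, 333 and 403 CPM in males, with each male above each female. It rose with age by 1.38 on the log2 scale, 2.596-fold (SE 0.0991, adjusted p = 1.05e-07), with 1.01 (SE 0.0952) in females and 1.77 (SE 0.168) in males.

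Cd9 (ENSMUSG00000030342, chr6:125437210-125471778, minus strand) encodes the tetraspanin, which endothelial cells and platelets also carry. Its 2-week libraries were at 185, 204 and 199 CPM in females and 265, 239 and 212 CPM in males. Its 65-week libraries were at 102, 126 and 143 CPM in females and 153, 146 and 134 CPM in males, all below the young ones. The log2 fold change was −0.58, a 1.498-fold fall (SE 0.0913, adjusted p = 1.04e-04), and it was −0.53 (SE 0.124) in females and −0.61 (SE 0.128) in males.

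Fabp5 (ENSMUSG00000027533, chr3:10077602-10081674, plus strand) encodes the fatty acid carrier. Its level was 60.97, 69.2 and 57.4 CPM in young females and 90.1, 78.99 and 89.9 CPM in young males. Old females were at 107, 93.6 and 99.5 CPM and old males at 233, 114 and 169 CPM, and the old males were spread over a wider range than any other group. Fabp5 rose by 0.95 on the log2 scale, 1.94-fold (SE 0.142, adjusted p = 7.12e-05), with 0.82 (SE 0.0866) in females and 1.12 (SE 0.243) in males. Fabp4, the fatty acid carrier of fat cells, of capillary endothelium and of some macrophages, went the other way, with a log2 fold change of −2.70 (SE 0.170, adjusted p = 3.23e-08).

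Ctsd (ENSMUSG00000007891, chr7:141929646-141941775, minus strand) encodes the lysosomal protease. Its 2-week libraries were at 1492, 1428 and 1311 CPM in females and 2140.4, 1963 and 1411 CPM in males. Its 65-week libraries were at 1908, 1992 and 2299.9 CPM in females and 3102, 2426 and 2584 CPM in males. This was the only one of the 8 genes in which the ages overlapped, through the 2-week male replicates 1 and 2. The rise was 0.67 on the log2 scale, 1.59-fold (SE 0.112, adjusted p = 1.87e-04), with 0.69 (SE 0.0941) in females and 0.68 (SE 0.195) in males.

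**Figure D2:**
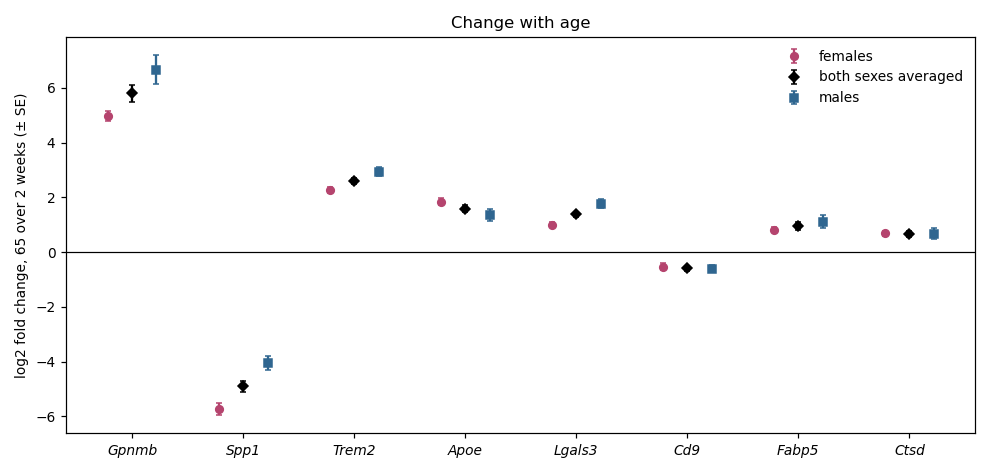
Log2 fold change of 65 over 2 weeks for each of the 8 genes, in females (circles), averaged over sex (diamonds) and in males (squares), with bars of 1 SE from the edgeR fits (3 libraries per group). The averaged change ran from −4.90 for Spp1 to 5.80 for Gpnmb, and the direction was the same in both sexes for each gene.

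The changes within a sex were also taken without the library of that sex that held counts of the other sex. In females without 2-week replicate 3 they were 4.80 for Gpnmb, −5.85 for Spp1, 2.11 for Trem2, 1.77 for Apoe, 0.92 for Lgals3, −0.58 for Cd9, 0.695 for Fabp5 and 0.575 for Ctsd on the log2 scale. In males without 65-week replicate 3 they were 7.01 for Gpnmb, −3.95 for Spp1, 3.01 for Trem2, 1.21 for Apoe, 1.80 for Lgals3, −0.55 for Cd9, 1.14 for Fabp5 and 0.72 for Ctsd. No direction changed.

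Among the other lysosomal enzymes and membrane proteins, 12 of 24 tested rose, 2 fell and 10 were not called, with a median log2 fold change of 0.21. Ctss, the cathepsin of antigen-presenting cells, rose by 1.66 (SE 0.0985, adjusted p = 2.00e-08), and Psap, the precursor of the saposins that help to degrade sphingolipids, by 0.92 (SE 0.0853, adjusted p = 1.06e-06). The cathepsin gene Ctsl and the peptidase gene Tpp1 fell, with log2 fold changes of −2.41 (SE 0.142, adjusted p = 1.85e-08) and −0.45 (SE 0.0993, adjusted p = 0.00150). Of 20 other genes reported for lipid-associated macrophages, 10 rose, 6 fell and 4 were not called, with a median of 0.42. Apoc2, the activator of lipoprotein lipase, rose by 2.82 (SE 0.272, adjusted p = 1.51e-06), and the integrin gene Itgax, which encodes CD11c, by 2.43 (SE 0.104, adjusted p = 1.49e-09). Csf1, the growth factor of macrophages, fell, at −1.90 (SE 0.121, adjusted p = 3.56e-08). Of 22 family neighbours tested, 9 rose, 10 fell and 3 were not called, with a median of 0.09. The 7 lists together held 111 tested genes outside the set, of which 54 (48.6%) rose and 34 (30.6%) fell, against 34.8% and 35.0% of all genes.

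Marker lists of other cells moved between the ages too. The summed level of 15 macrophage markers ran from 3106 to 3515 CPM in 2-week females, 3202 to 5750 CPM in 2-week males, 4741 to 6317 CPM in 65-week females and 4081 to 5878 CPM in 65-week males, and 9 of the 15 rose, 1 fell and 5 were not called. Its most abundant markers, the receptor genes Axl and Mrc1, were not called (adjusted p of 0.0678 and 0.0897). The 17 endothelial markers, led by Stab2 and Plvap, all fell, with sums of 3784 to 6833 CPM at 2 weeks and 314 to 442 CPM at 65 weeks. All 11 tested osteoblast and osteocyte markers, led by the collagen genes Col1a2 and Col1a1, fell, from 5663 to 8476 CPM at 2 weeks to 153 to 242 CPM at 65 weeks, and Sost was at 0 counts in all 3 of the 65-week females. Of 12 osteoclast markers, 9 fell and 1 rose, from 2835 to 3861 CPM at 2 weeks to 968 to 1983 CPM at 65 weeks. All 9 monocyte markers were called, 7 higher and 2 lower, and all 11 neutrophil markers rose. Of the remaining lists, all 10 tested chondrocyte and all 11 megakaryocyte markers fell, 4 of 7 adipocyte and 2 of 4 joint lining markers fell with none higher, and all 5 B cell markers rose. Dendritic markers rose in 4 and fell in 1 of 7, plasma cell markers rose in 2 and fell in 2 of 4, erythroid markers rose in 6 of 8 with none lower, and T and NK cell markers rose in 5 and fell in 1 of 6. The part of these cells in the level of the 8 genes was not tested.

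**Figure D3:**
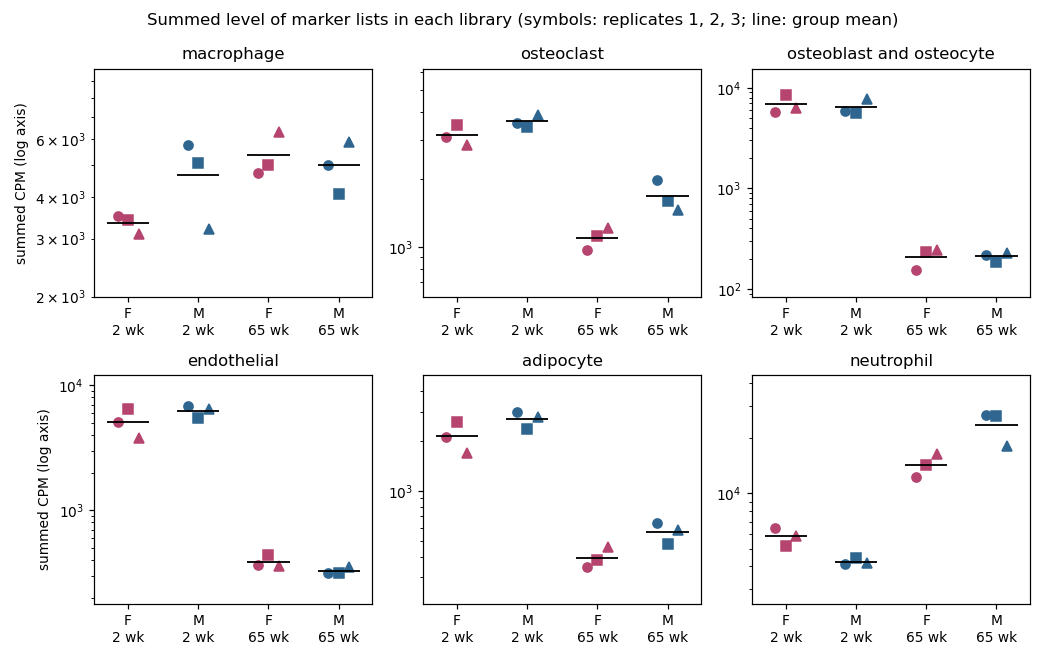
Summed CPM of 6 marker lists in each library on a log axis; symbols are replicates 1, 2 and 3 and the line is the group mean. The endothelial and osteoblast sums of the 65-week libraries lay below all 2-week libraries, the osteoclast sum was higher in 65-week males than in 65-week females with Mmp9 counted but overlapped without it, and the macrophage sums of the sexes overlapped at both ages.

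The second comparison asked whether the 8 genes differed between the sexes at 2 weeks. By edgeR's test, 0 of the 8 were called, where 0.0332% of the 15081 genes tested were called (0.0265% higher and 0.00663% lower in males). At an unadjusted p under 0.05 there were 4 (Trem2, Cd9, Fabp5 and Ctsd), where 17.8% of all genes tested passed it, and DESeq2 called 1, Fabp5, where it called 3.12% of the genes it tested. The log2 fold change of male over female was positive for 7 of the 8, with a median of 0.29. The log2 fold changes were 0.45 for Fabp5 (SE 0.0824, edgeR adjusted p = 0.213), 0.37 for Trem2 (SE 0.120, adjusted p = 0.229) and 0.37 for Ctsd (SE 0.155, adjusted p = 0.278). Cd9 was at 0.27 (SE 0.0989, adjusted p = 0.250). For the secreted or membrane proteins Spp1, Gpnmb and Apoe they were 0.31, 0.27 and 0.25, with edgeR adjusted p of 0.311, 0.348 and 0.351. Lgals3 was the gene with a lower mean in males, at −0.12 (SE 0.0772, edgeR adjusted p = 0.419). All 3 males were above all 3 females for Trem2, Cd9 and Fabp5, 37.5% of the set, and this held for 9.97% of all genes tested. With DESeq2 the log2 fold change of Fabp5 was 0.44, with an adjusted p of 0.00134, and over all alternatives its adjusted p ran from 0.00134 to 0.646. Without female replicate 3, which held the Y-linked counts, the edgeR log2 fold changes were 0.40 for Fabp5, 0.32 for Ctsd, 0.29 for Cd9, 0.28 for Trem2, 0.25 for Spp1, 0.24 for Apoe, 0.17 for Gpnmb and −0.13 for Lgals3, with adjusted p from 0.428 to 0.724. The macrophage sum of the 2-week males was 5750, 5078 and 3202 CPM in replicates 1 to 3, the same order of libraries as for Apoe, Cd9 and Ctsd. Trem2, Gpnmb and Lgals3 were instead highest in replicate 3, and Spp1 and Fabp5 were lowest in replicate 2. The neutrophil sum ran from 5195 to 6505 CPM in 2-week females and from 4127 to 4424 CPM in 2-week males. All 3 males were below all 3 females for 11 of 11 neutrophil markers, and for 11.8% of all genes tested. Of these markers edgeR called 0, 11 had an unadjusted p under 0.05 and DESeq2 called 9. The part of these cells in the differences was not tested. Of the 111 tested genes in the related lists, 0 were called by edgeR, 36 had an unadjusted p under 0.05 and DESeq2 called 6.

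The third comparison, male against female at 65 weeks, is the one on which the set was picked, and its values are a description. Spp1 had a log2 fold change of male over female of 2.01 (SE 0.252), from 26.5 ± 5.85 CPM (SD, n = 3) in females to 107 ± 31.2 CPM in males. For Gpnmb it was 1.99 (SE 0.427), from 81.4 ± 16.1 to 321 ± 181 CPM. For Trem2 it was 1.07 (SE 0.140), from 30.8 ± 2.08 to 65.1 ± 8.34 CPM. These values were higher than those of the other 5 genes, whose log2 fold changes were 0.78 for Fabp5, 0.67 for Lgals3, 0.38 for Ctsd, 0.21 for Cd9 and −0.22 for Apoe. All 3 males were above all 3 females for 6 of the 8 genes, and the sexes overlapped for Apoe and Cd9. This pattern was found for 9.32% of the 14287 genes tested, and the reverse for 6.16%, and edgeR called 6 genes in all, or 0.042%. Without male replicate 3 it called 830 genes. Nothing is read from these counts, or from Spp1, Gpnmb and Trem2 standing above the other 5 genes, since the set was picked on this contrast.

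The libraries of the old males did not stand in the same order for each gene. Replicate 3 was the lowest male for Gpnmb, Trem2 and Cd9, whereas replicate 2 was the lowest for Spp1, Apoe, Lgals3, Fabp5 and Ctsd. Without male replicate 3, the library with Xist counts, the log2 fold change of male over female was 2.36 for Gpnmb, 2.12 for Spp1, 1.16 for Trem2, 0.82 for Fabp5, 0.72 for Lgals3, 0.44 for Ctsd, 0.29 for Cd9 and −0.35 for Apoe. Each of the 8 values was further from 0 without it than with it. No test was made of the sex difference between the ages, since it would use the same 65-week values. The B cell marker sum was also highest in that library, at 1405 CPM against 348 and 448 CPM in the other old males.

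**Figure D4:**
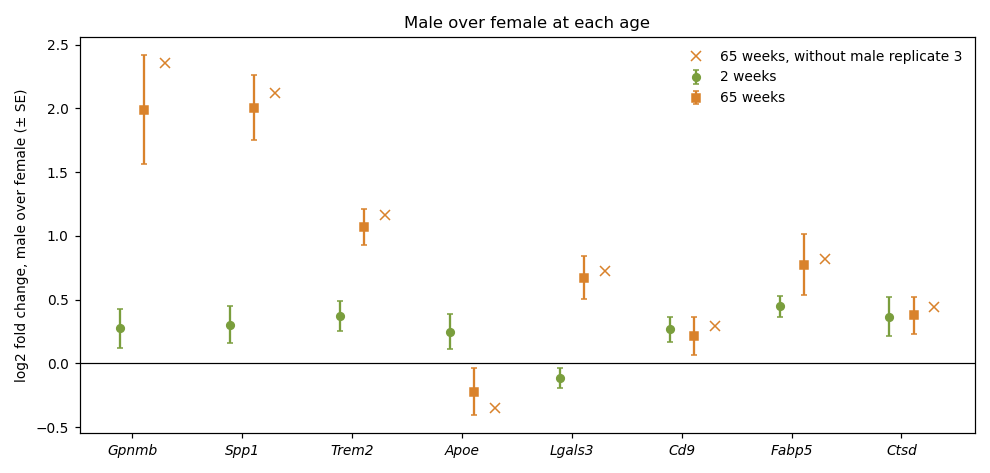
Log2 fold change of male over female for each of the 8 genes at 2 weeks (circles) and 65 weeks (squares), with bars of 1 SE, and at 65 weeks without male replicate 3 (crosses). Spp1, Gpnmb and Trem2 lay between 1.07 and 2.01 at 65 weeks and between 0.27 and 0.37 at 2 weeks.

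Markers of osteoclasts, which make both GPNMB and osteopontin, were followed beside this difference. Their sum ran from 968 to 1216 CPM in the old females and from 1460 to 1983 CPM in the old males, without overlap, with Calcr at 3 counts or fewer in all old females. Averaged over the 4 groups the most abundant of them was Mmp9, a matrix protease that neutrophils also make, at 631 ± 98.1 CPM in old females and 1148 ± 217 CPM in old males, and the next was the acid phosphatase gene Acp5, at 213 ± 11.6 and 197 ± 7.797 CPM. The sum of the other 11 markers without Mmp9, taken after the values were seen, ran from 429 to 499 CPM in old females and from 471 to 587 CPM in old males, which overlapped. Of 9 osteoclast markers tested at 65 weeks, 0 were called by edgeR, 3 had an unadjusted p under 0.05 and DESeq2 called 3, all higher in males. The macrophage marker sums of old females and males overlapped. Of 15 macrophage markers, 0 were called by edgeR, 2 had an unadjusted p under 0.05 and DESeq2 called 1, lower in males. The neutrophil sum ran from 12262 to 16489.9 CPM in old females and from 18139 to 26714 CPM in old males. Of 11 neutrophil markers, 0 were called by edgeR, 10 had an unadjusted p under 0.05 and DESeq2 called 5, all higher in males. All 3 old males were above all 3 old females for 10 of the 11. The part of these cells in the difference was not tested. Of the 108 tested genes of the related lists, 0 were called by edgeR, 23 had an unadjusted p under 0.05 and DESeq2 called 10, 6 higher and 4 lower in males. The 20 other lipid-associated macrophage genes held 9 of those 23 and 5 of those 10, 4 higher and 1 lower. The cholesterol list and the TREM2 adaptor list held 0 of either. Over all genes tested, 10.4% had such a p and DESeq2 called 2.56%.

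Levels of different genes were set against each other per length, as CPM per kilobase of exon (RPKM). In 2-week females the order was Spp1 at 544 ± 115 RPKM (SD, n = 3), Ctsd at 509.7 ± 33.3, Apoe at 248 ± 10.04, Cd9 at 92.2 ± 4.51, Lgals3 at 61.1 ± 3.41, Fabp5 at 17.1 ± 1.66, Trem2 at 1.42 ± 0.168 and Gpnmb at 0.432 ± 0.0616 RPKM. With this length the order of the means was the same in 2-week males, and in both sexes only Spp1 and Ctsd overlapped with each other. At 65 weeks Spp1 had gone from the first to the seventh place. The 65-week females had Apoe at 811 ± 140.2 and Ctsd at 747 ± 74.7 RPKM, which overlapped, then Lgals3, Cd9 and Fabp5, then Gpnmb at 12.3 ± 2.44 and Spp1 at 9.34 ± 2.06 RPKM, which overlapped, and Trem2 at 6.23 ± 0.421 RPKM as the lowest. In 65-week males Ctsd was first at 977 ± 128 RPKM and Apoe next at 705 ± 158 RPKM. Cd9, Gpnmb, Fabp5 and Spp1 followed Lgals3 and overlapped each with the next, from 67.8 ± 4.53 to 37.6 ± 10.96 RPKM, and Trem2 was again the lowest at 13.2 ± 1.69 RPKM. These levels depended on the length used. With the longest transcript the mean of Gpnmb in 65-week males was 83.9 in place of 48.4 RPKM, and in 2-week males Ctsd, at 819 RPKM, stood above Spp1, at 784 RPKM.

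The genes with the profile most like those of Gpnmb, Spp1 and Trem2 were sought among 14032 genes by the root mean square difference of log2 CPM over the 12 libraries, each gene centred on its own mean. For Gpnmb they were Awat1 (0.690), which encodes a wax synthase, Dock3 (0.757), a guanine nucleotide exchange factor, and Acod1 (0.852), the itaconate-forming enzyme of activated macrophages. At 2 weeks these 3 genes had group means of 0.0630 to 0.293 CPM, at or near the floor of 3 counts, so their likeness to Gpnmb rests on the 65-week libraries. Nearest to Spp1 were the anion transporter gene Slc26a7 (0.290) and the matrix genes Lum (0.305) and Thbs2 (0.352). For Trem2 they were the ubiquitin ligase gene Rnf128 (0.320), the myosin gene Myo18b (0.330) and Ftl1-ps1 (0.335), a copy of the ferritin light chain gene whose reads can be shared with that gene. The 3 genes were less alike among themselves, with differences of 1.61 between Gpnmb and Trem2, 3.77 between Spp1 and Trem2 and 5.31 between Gpnmb and Spp1. The libraries share their sort and age effect. Their totals also differed by age, at 26044743 to 34088694 counts at 65 weeks and 35012947 to 44569600 counts at 2 weeks. Likeness here is therefore a description.

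In the annotation of GRCm39, 7 of the 8 genes are overlapped by 10 other genes, none of which is in the count table. Ctsd shares its strand with the protein-coding Gm49369, and the processed pseudogene Fabp5l2 resembles Fabp5. Whether the counting used the strand is not given in the sources used here, so reads of overlapping genes cannot be told apart from those of these genes.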

How the data were processed

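Poly(A) or total RNA (the label and the library kit differ) of cells sorted for endomucin and labelled as BECs was sequenced as 100-nucleotide paired reads, with 12 libraries in 4 groups of 3. The file holds raw counts per gene as deposited by the authors, for 37620 Ensembl gene IDs, and all columns were used. The submitters' processing notes name TopHat2, HTSeq and mm9, whereas the study's methods name other tools and a later build, so the route to these counts is unresolved, and 6568 of the IDs were not in the GRCm39 annotation used for names and lengths (99.3% of the counts were in matched IDs). Groups came from the labels.

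From the counts, CPM was computed over the library total, and RPKM over the union of annotated exons. Differences were fitted in R 4.3.3 with edgeR 4.0.16, by the quasi-likelihood test after TMM scaling and filterByExpr at its minimum count of 10, with Benjamini-Hochberg adjustment over all genes and a threshold of 0.05. The sexes were compared within the 6 libraries of an age, and the ages in all 12 libraries. All 8 genes passed the filter in each comparison. SE is that of the log2 fold change, taken from the test statistic. The fits were tested on simulated counts. Alternatives were DESeq2 1.42.0, other scalings, no filter, thinned counts, 1 model for all libraries, a replicate block and each library left out, and for age also each sex alone, which is given as values only. The sum of osteoclast markers without Mmp9 was added after the data were seen. The sums of markers were in CPM.

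The 8 genes, the lists of related genes and the markers were chosen with earlier results of these data known. Of 268 list genes, 1 had no match. Besides the 8 genes, the text names, per related list, the 2 that rose most and the 2 that fell most of those called with age at an average log2 CPM of at least 2, the 2 most abundant markers of the macrophage, osteoclast, osteoblast and endothelial lists, and the 3 protein-coding genes most alike in profile. Emcn, Sost, Calcr and the sex-linked genes were named outside this rule, and 2 genes that it picks are not reported here. The motifs were chosen after the counts were seen. Promoter windows came from RefSeq on GRCm38.p6, and no coordinate was converted between builds.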

Additional observations from a re-analysis of the deposited data

How the results depend on the processing

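For age averaged over sex, the 19 alternatives that kept both sexes in the fit kept the direction and the call of each of the 8 genes, and the count of genes called stayed within 10436 to 11839 around 10991. Scaling by library totals moved the median of all genes by −0.11 on the log2 scale in that contrast, and the 8 genes kept their directions relative to it. In females alone, library totals gave an age change of 0.87 for Lgals3, 0.68 for Fabp5 and 0.55 for Ctsd, and leaving out 2-week female replicate 3 gave 2.11 for Trem2 and 0.695 for Fabp5. Sex at 2 weeks gave 5 called genes with edgeR, 412 with DESeq2 (82 higher and 330 lower in males) and 8 with all 12 libraries in 1 model. Leaving out 1 library gave 5 to 11, with 11 without female replicate 2 and 8 without male replicate 3. Of the 8 genes, DESeq2 called 1, and the other 13 alternatives called 0. Sex at 65 weeks gave 6 called genes, 10 with library totals, 358 with DESeq2 (163 higher and 195 lower), 105 with no filter and 254 with all libraries in 1 model. Leaving out 1 library gave 5 to 830, with 830 (289 higher and 541 lower) without male replicate 3 and 15 without male replicate 2. The cause was not tested. In that contrast the 8 genes kept the sign of their log2 fold change in all 14 alternatives, with ranges of 1.49 to 2.36 for Gpnmb, 1.72 to 2.15 for Spp1, 0.95 to 1.16 for Trem2 and −0.36 to −0.06 for Apoe.

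The labels number the replicates, but of 18 same-numbered pairs of libraries, 1 had a correlation of deviations over 0.1 (range −0.355 to 0.14), so the numbers are not treated as pairs. With the replicate block, 10544 genes were called with age, 5 by sex at 2 weeks and 7 by sex at 65 weeks, and the block changed no call of the 8 genes. With 3 libraries a group, the male or female origin of single libraries bears on each sex comparison, and a p that misses the threshold does not show equal levels.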
